A study of Homo sapiens with 12 samples.

Results

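PANC-1 is an established human pancreatic ductal adenocarcinoma cell line. Its cells were transfected for 20 h with 1 of 4 oligonucleotides: premir miR-10b, which supplies the microRNA miR-10b, its premir control, antimir-10b, which inhibits the same microRNA, or its antimir control. Each of the 4 oligo groups has 3 biological replicates, numbered 1 to 3 in the array titles, and total RNA of each was hybridised to 1 Illumina BeadChip expression array. The arrays numbered 3 were compared with those numbered 1 or 2. Of the 12 arrays, 4 are numbered 3, 1 in each oligo group, and 7 are numbered 1 or 2. The remaining array, premir miR-10b replicate 2, was left out, so the premir miR-10b group has 1 lower-numbered array and the other groups have 2 each. All 11 cultures were transfected cultures of the same line, with no untransfected culture among them. The labels do not say whether a number marks a shared day, passage, transfection or hybridisation.

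The question was which transcripts the arrays numbered 3 held at other levels than the lower-numbered arrays, whatever the oligo. Each of 17369 features was fitted with the oligo group as a covariate, so that the difference is that of the array numbered 3 from the lower-numbered arrays of its own group. All levels below are background-corrected, quantile-normalized log2 signals, and all differences are numbered 3 minus numbered 1 or 2, so that a difference of -1 is a signal at 0.5 of the other.

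The measurements were of similar quality in both sets. Between 39.2% and 40.8% of probes were detected on the arrays numbered 3, and between 39.5% and 41.3% on those numbered 1 or 2. The array left out detected 29.5%. The lowest correlation between any pair of the 11 arrays was 0.981 over the features. The ductal markers of the line were present on all 11 arrays: KRT8 averaged 11.3 and KRT19 averaged 11.8 on the arrays numbered 3, and KRT8 averaged 11.3 and KRT19 averaged 11.9 on the others. In all, 8 of 10 duct markers were measured. Of the markers of other cell types, 1 of 11 acinar, 1 of 9 islet, 3 of 10 fibroblast, 3 of 10 leukocyte and 1 of 8 endothelial genes passed the detection filter. The mean level of the duct list was 8.91 to 9.18 on the arrays numbered 3 and 9.02 to 9.15 on those numbered 1 or 2. Fewer cells of a kind and less RNA per cell cannot be told apart in such bulk RNA.

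Interferons are secreted proteins that cells release on sensing viral or other foreign nucleic acid. They act through receptors on the cell surface, and a short DNA element upstream of a large set of genes carries the response. The products of these genes detect RNA (IFIH1, RIGI), degrade it or block its translation (the OAS and IFIT families), trap viral particles (MX1, IFITM3) or tag proteins (ISG15). Cholesterol and fatty acid synthesis are controlled by the SREBP transcription factors, which are held inactive by INSIG1 when sterol is plentiful. Both groups are described first, and the transcripts outside them after.

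The interferon-stimulated response element was searched for as GAAA, any 2 bases and GAAA again, on both strands, in the window from 250 bases before to 50 bases after the start of each gene. RefSeq promoters (GRCh38.p14) were matched by symbol for 31 of the 38 measured interferon genes, and 18 of these 31 (58.1%) held the motif. It was found in 2.82% of the 9422 measured genes with a promoter and in 3.57% of all 35116 promoters. The list names genes of the response that this element carries, so its higher share follows from the choice of list. The share says nothing about the arrays numbered 3. Stretches of 30 bases are shown for 8 interferon genes that hold the motif, as examples of the element and its spacing. Capitals mark the motif, in either orientation, and matches can overlap. All lie before the start of the gene, and each is given 5′ to 3′ on the gene's own strand.
IFIT1, chr10:89392504-89392533, plus strand: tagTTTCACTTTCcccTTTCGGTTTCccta
IFIT3, chr10:89327831-89327860, plus strand: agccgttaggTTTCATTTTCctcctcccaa
ISG15, chr1:1013377-1013406, plus strand: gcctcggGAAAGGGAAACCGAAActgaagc
IFI6, chr1:27672329-27672358, minus strand: ggagagagggGAAAATGAAActctgcagag
HERC5, chr4:88456987-88457016, plus strand: attacagTTTCCTTTTCCTTTTCgattccg
IFIH1, chr2:162318821-162318850, minus strand: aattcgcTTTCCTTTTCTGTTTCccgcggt
OAS3, chr12:112938321-112938350, plus strand: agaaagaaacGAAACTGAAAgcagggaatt
PARP14, chr3:122680800-122680829, plus strand: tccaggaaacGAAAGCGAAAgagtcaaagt
IFIT1, ISG15, HERC5 and IFIH1 each show a pair of matches within the 30 bases. The median log2 difference was -0.767 for the 18 interferon genes with a match and -0.355 for the 13 without one. The split was not sharp: PARP9, IRF9 and OAS1 held no match and differed by -1.09, -0.91 and -0.81, while IFIT5, IFI44L and ISG20 held 3, 2 and 1 and differed by -0.20, 0.04 and 0.17. Among the genes shown, IFIT3, HERC5 and OAS3 differed by -1.06 ± 0.28, -0.98 ± 0.21 and -0.83 ± 0.18 (SE), and none passed the test. A match describes these letters and is no evidence of binding. The sterol regulatory motif, searched as TCACNCCAC on both strands in the same window, was found in 1 of 17 cholesterol genes with a promoter (5.88%), SREBF2, against 1.04% of the measured genes. A share that rests on 1 gene shows no excess. SREBF2 differed by -0.05, and the 16 cholesterol genes without a match had a median of -0.317.

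Across all features no transcript passed the test. limma called 0 of 17369 features higher and 0 lower at an adjusted p under 0.05, so the percentage called was 0 in both directions, and the smallest adjusted p was 0.122, that of PXDN. At an unadjusted p under 0.05 there were 1036 features, 539 higher (3.1%) and 497 lower (2.86%), where 868 would be expected by chance. In simulated data of this layout the same procedure recovered 58% of 50 features changed by 1.5-fold and 96% of 50 changed by 2-fold. The simulated noise was drawn independently for each feature, at that feature's own residual spread, and the changed features were picked at random. Variation shared between features was not simulated, so these percentages do not give the recovery of a set of genes that vary together or of a gene with a wide spread. The values below are therefore descriptions of differences that did not pass the test, except where a call is named.

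The interferon response had the most negative median of the lists. Of its 38 measured genes 36 had a negative difference, with a median of -0.593 and a range from -2.06 to 0.17, against 47.8% negative and a median of 0.00646 over all features. None was called, and 31 of the 38 had an unadjusted p under 0.05 in the lower direction, against 2.86% of all features. The 19 cholesterol synthesis and uptake genes were all negative, with a median of -0.303 and a range from -0.56 to -0.03, and 12 of 14 fatty acid synthesis genes were negative, with a median of -0.203. Of 34 lists described, 19 had a negative median, and no member of any was called.

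**Figure D1:**
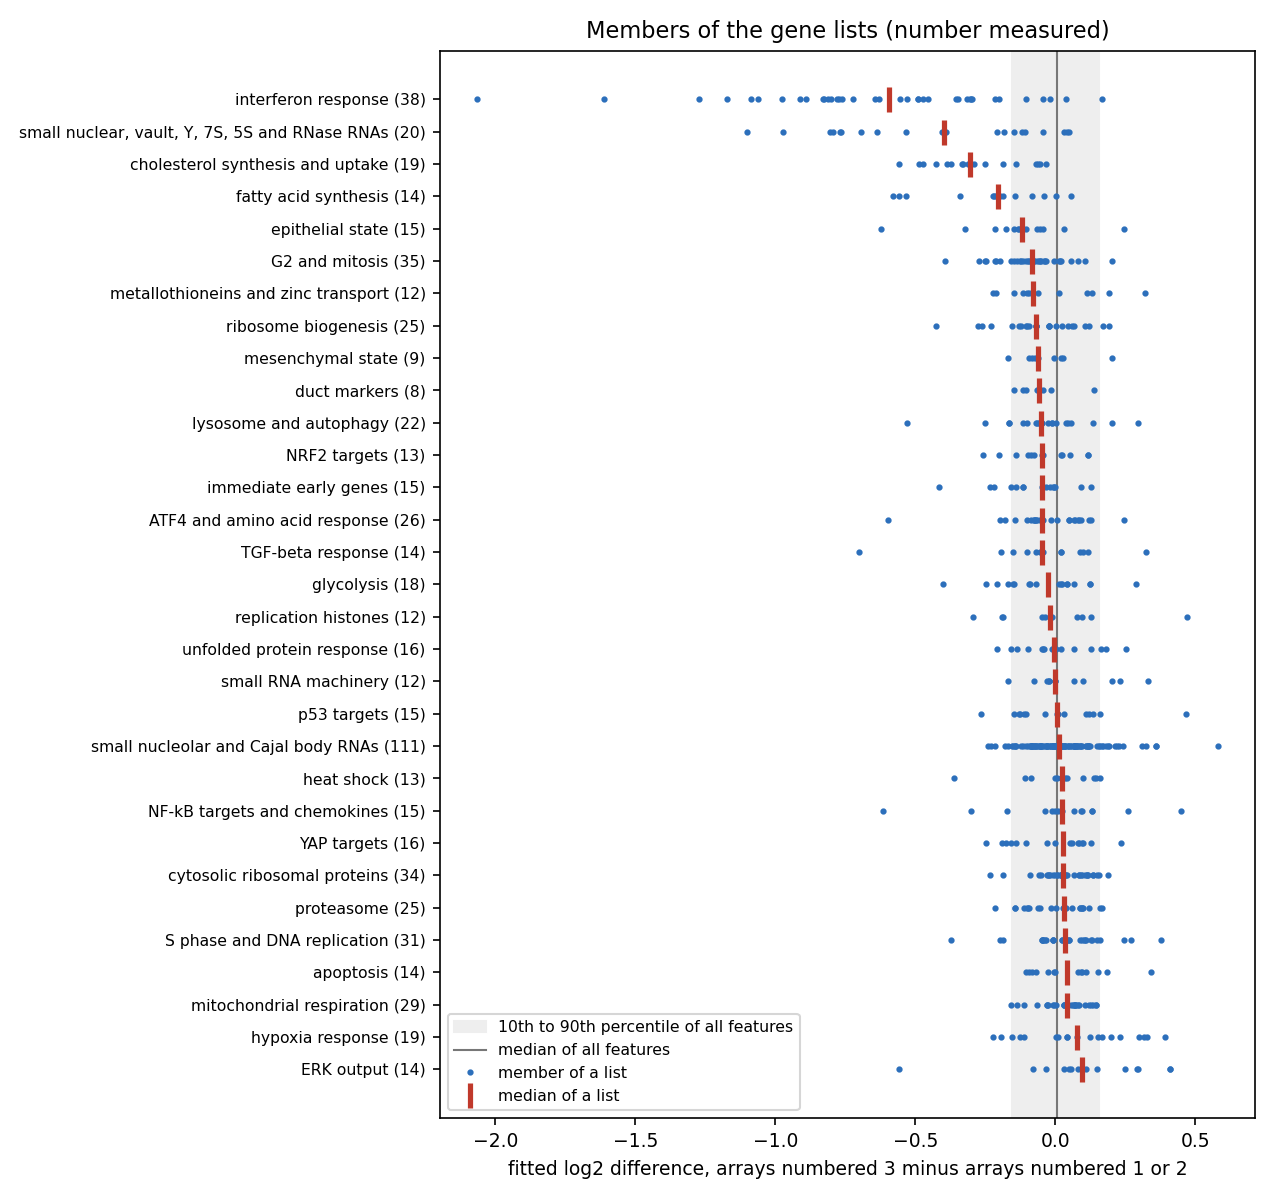
Fitted log2 difference, arrays numbered 3 minus arrays numbered 1 or 2, of each measured member (blue points) of every list with 8 or more measured members, with the list's median (red bar), the median of all features (grey line) and their 10th to 90th percentile (grey band, from -0.153 to 0.158). The medians of the interferon (-0.593), short non-coding RNA (-0.397), cholesterol (-0.303) and fatty acid (-0.203) lists are the lowest shown. The band is the spread of single features and is no measure of the error of a list's median.

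MX1, a GTPase that traps incoming viral ribonucleoproteins, had the largest difference in the list. On the arrays numbered 3 it was at 9.63 with premir miR-10b, 8.41 with premir control, 8.82 with antimir-10b and 9.53 with antimir control. On those numbered 1 or 2 the lowest was 9.06, the median 11.71 and the highest 11.95. The lowest of these was antimir control replicate 2, which lay among the arrays numbered 3, and the other 6 arrays were all at 10.7 or above. The difference was -2.06 ± 0.46 (SE), a 4.18-fold lower signal, with an adjusted p of 0.421 by limma.

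OAS2, an enzyme that makes the activator of a latent ribonuclease, was at 5.23, 5.2, 5.22 and 5.37 on the arrays numbered 3 in the same order of groups. On the arrays numbered 1 or 2 it had a lowest level of 5.2, a median of 7.15 and a highest of 7.62. It was detected on 1 of the 4 arrays numbered 3 and on 6 of the 7 others. The array of the 7 on which it was not detected was again antimir control replicate 2, at 5.2.

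IFIT1, which binds RNA without the cap structure of the host, was at 9.32, 8.89, 9.01 and 9.3 on the arrays numbered 3. The arrays numbered 1 or 2 had a lowest level of 9.02, a median of 10.51 and a highest of 11.08. The fitted difference was -1.27 ± 0.25 (SE), with an adjusted p of 0.401 by limma. A dimmer second probe of IFIT1, detected on 3 of the 11 arrays, gave -0.17.
PARP9, a partner of an E3 ubiquitin ligase in interferon signalling, was at 7.3, 7.61, 7.52 and 7.82 on the arrays numbered 3. On the others PARP9 had a lowest level of 7.71, a median of 8.84 and a highest of 9.14. Its difference was -1.09 ± 0.21 (SE, adjusted p = 0.401, limma). IRF9, a DNA-binding regulator of the interferon response, averaged 9.8 ± 0.17 on the 4 arrays numbered 3 and 10.68 ± 0.45 on the 7 others (SD), a difference of -0.91 ± 0.18 (SE, adjusted p = 0.401, limma). For all 3 genes the 2 ranges overlapped through antimir control replicate 2 alone, and the other 6 lower-numbered arrays lay above every array numbered 3. With that array left out, all 4 arrays numbered 3 lay below the other 6 for 25 of 38 interferon genes. The share over all features was 0.777%, and 0.213% with that array kept.

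**Figure D2:**
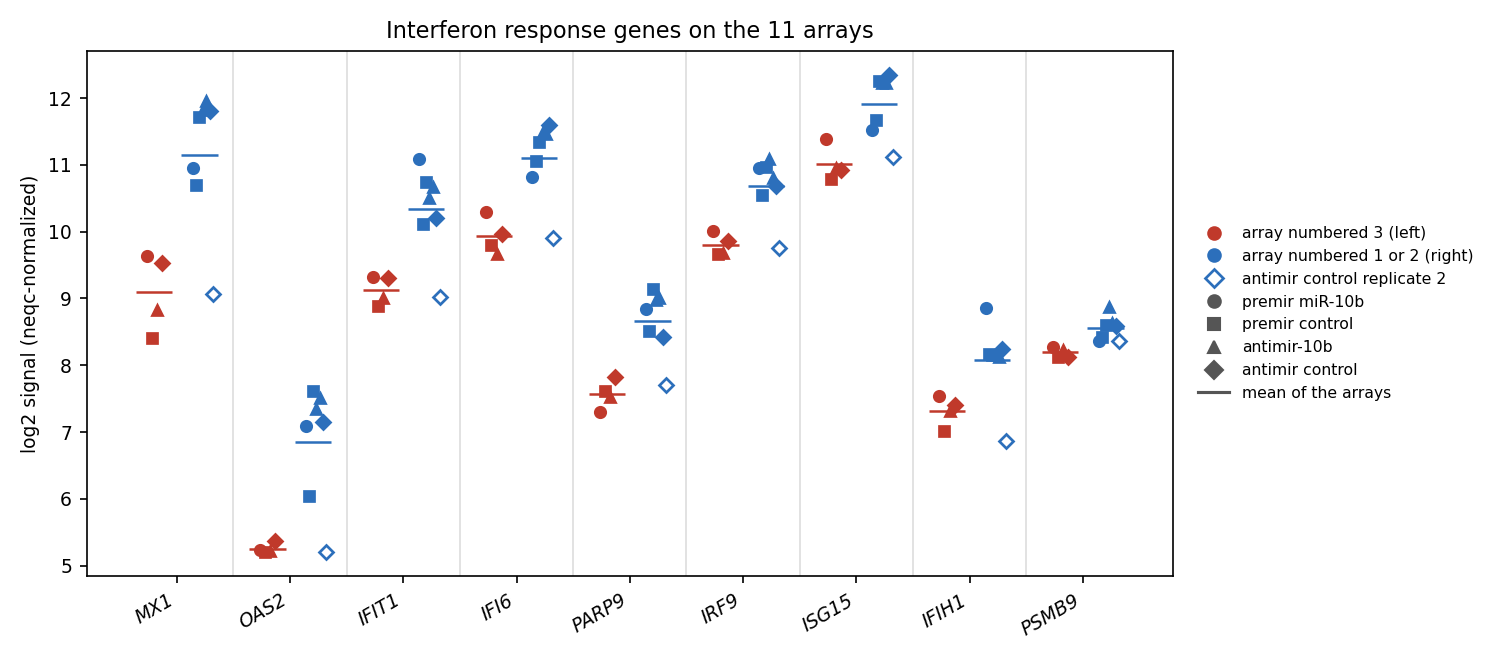
Normalized log2 signal (vertical axis) of 9 interferon response genes on the 4 arrays numbered 3 (red, left) and the 7 arrays numbered 1 or 2 (blue, right), with the oligo group shown by marker shape and the mean of each set by a bar. The open diamond is antimir control replicate 2, which lies at 9.06 for MX1 and 5.2 for OAS2, among the red points, while the other 6 blue points lie above all red points for each gene shown. With that array left out, such a separation held for 0.777% of all features.

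In the antimir control group 2 of the 3 arrays had low levels of these genes. The mean level of the 38 genes was 7.653 with premir miR-10b, 7.488 with premir control, 7.537 with antimir-10b and 7.621 with antimir control on the arrays numbered 3. It was 7.546 on antimir control replicate 2 and between 8.003 and 8.421 on the other 6 lower-numbered arrays. For 31 of the 38 genes (81.6%) antimir control replicate 2 was below all 6 of those arrays, against 12% of all features. Within the antimir control group, replicate 3 was below replicate 2 for 13 of 38 genes, and replicate 2 was below replicate 1 for 37. The median difference of the array numbered 3 from the mean of its lower-numbered arrays was -0.581 with premir miR-10b, -0.635 with premir control and -0.773 with antimir-10b, and -0.24 with antimir control. Negative differences were found for 35, 34, 34 and 34 of the 38 genes in these 4 groups.

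A gene was also counted when its array numbered 3 lay below every lower-numbered array of its own oligo group in all 4 groups. This held for 10 of the 38 interferon genes (26.3%) against 1.67% of all features: IFI44, IFI35, ISG15, OASL, DDX60, IFITM2, IFITM3, PSMB9, RSAD2 and PARP14. ISG15, a ubiquitin-like protein joined to other proteins, was at 11.39, 10.79, 10.96 and 10.93 on the arrays numbered 3. The arrays numbered 1 or 2 had a lowest level of 11.12, a median of 12.23 and a highest of 12.35 for ISG15. The overlap came from antimir control replicate 2, at 11.12. IFITM3, which blocks fusion of viral and endosomal membranes, averaged 11.58 ± 0.15 on the arrays numbered 3 and 12.1 ± 0.25 on the others (SD). PSMB9, a subunit of the immunoproteasome, was the only one of the 38 for which all 4 arrays numbered 3 lay below all 7 others, at 8.13 to 8.28 on the arrays numbered 3 and 8.37 to 8.87 on the others. A dimmer PSMB9 probe, detected on 9 of the 11 arrays, gave -0.11, and with premir miR-10b replicate 2 included the difference of PSMB9 was 0.0638. The full separation was found for 0.213% of all features in the lower direction.

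With antimir control replicate 2 left out, limma called 20 features, 6 higher (0.0345% of those tested) and 14 lower (0.0806%). It was the only array of the 11 whose omission gave any call, the rest giving 0. It was also the lower-numbered array whose interferon levels lay with those numbered 3, so its omission removes the array that went against the difference, and the calls are no independent support for it. Of the 14 lower calls 9 were members of the interferon list: MX1, IFIT1, IFIH1, IRF9, IFI6, OAS2, PARP9, PARP14 and USP18. In that fit MX1 differed by -2.44 ± 0.26 (SE, adjusted p = 0.00776), IFIT1 by -1.47 ± 0.15 (SE, adjusted p = 0.00776) and IFIH1, a cytosolic sensor of double-stranded RNA, by -1.03 ± 0.10 (SE, adjusted p = 0.00776), all by limma. The other named lower calls were PARP12, SP110, SREBF1 and MMP9. The median of the interferon list without that array was -0.665.

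Several interferon genes reached the limit of detection on the arrays numbered 3. IFI27, OASL, RSAD2 and SAMD9 were not well above background on any of the 4, and they were detected on 6, 5, 5 and 6 of the 7 others. Their signals were at least 1.09-fold (IFI27), 1.22-fold (OASL), 1.10-fold (RSAD2) and 1.22-fold (SAMD9) lower on the arrays numbered 3. These bounds set the mean of the arrays numbered 1 or 2 against the lowest signal of any detected probe on each array numbered 3, or the gene's own signal where that was higher. Members with small differences were ISG20, at 0.17, IFI44L, at 0.04, MX2, at -0.02, and IRF1, at -0.04.

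Sterol genes had smaller differences. The mean level of the 19 cholesterol genes was 8.633 with premir miR-10b, 8.555 with premir control, 8.606 with antimir-10b and 8.662 with antimir control on the arrays numbered 3. It was between 8.694 and 9.022 on the 7 others, of which the lowest was again antimir control replicate 2. The ranges did not overlap, with a gap of 8.662 to 8.694 between them. INSIG1, the sterol-responsive retention protein of the SREBPs, was at 9.28, 9.29, 9.36 and 9.22 on the arrays numbered 3. On the arrays numbered 1 or 2 INSIG1 had a lowest level of 9.24, a median of 9.88 and a highest of 10.25. Its difference was -0.56 ± 0.12 (SE, adjusted p = 0.421, limma), and a second, dimmer INSIG1 probe gave -0.41.
TM7SF2 and LSS, a sterol reductase and the cyclase that makes lanosterol, had all 4 arrays numbered 3 below all 7 others. TM7SF2 spanned 7.68 to 8.15 on the arrays numbered 3 and 8.2 to 8.68 on the others. LSS spanned 9.27 to 9.45 on the arrays numbered 3 and 9.45 to 9.91 on the others, so that the gap was smaller than the rounding. Their differences were -0.49 ± 0.14 for TM7SF2 and -0.30 ± 0.11 for LSS (SE). Both other LSS probes, each detected on 4 of the 11 arrays, gave 0.02 and 0.03. In all, 5 of the 19 genes (26.3%) were below their own group's lower-numbered arrays in all 4 groups, against 1.67% of all features: INSIG1, LSS, SC5D, DHCR7 and TM7SF2. SREBF2 and FDPS differed by -0.05 and -0.03.

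Among the fatty acid genes, SREBF1, which encodes the SREBP that drives this pathway, was at 7.72, 7.2, 7.61 and 7.68 on the arrays numbered 3. The arrays numbered 1 or 2 had a lowest SREBF1 level of 7.66, a median of 8.11 and a highest of 8.4. The difference was -0.58 ± 0.14 (SE, adjusted p = 0.437, limma), and a dimmer SREBF1 probe gave -0.76. SCD, the stearoyl-CoA desaturase, differed by -0.53 ± 0.12 and FADS2, a desaturase of longer chains, by -0.56 ± 0.16 (SE). By oligo group FADS2 differed by -0.10 with premir miR-10b, -0.14 with premir control, -1.22 with antimir-10b and -0.65 with antimir control. The lowest of the 7 SREBF1 levels on the arrays numbered 1 or 2 was that of antimir control replicate 2. The mean level of the 14 fatty acid genes was 9.012 to 9.146 on the arrays numbered 3 and 9.09 to 9.423 on the others. These ranges overlapped through antimir control replicate 2, at 9.09. Within the antimir control group, replicate 3 was below replicate 2 for 2 of the 14 genes.

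**Figure D3:**
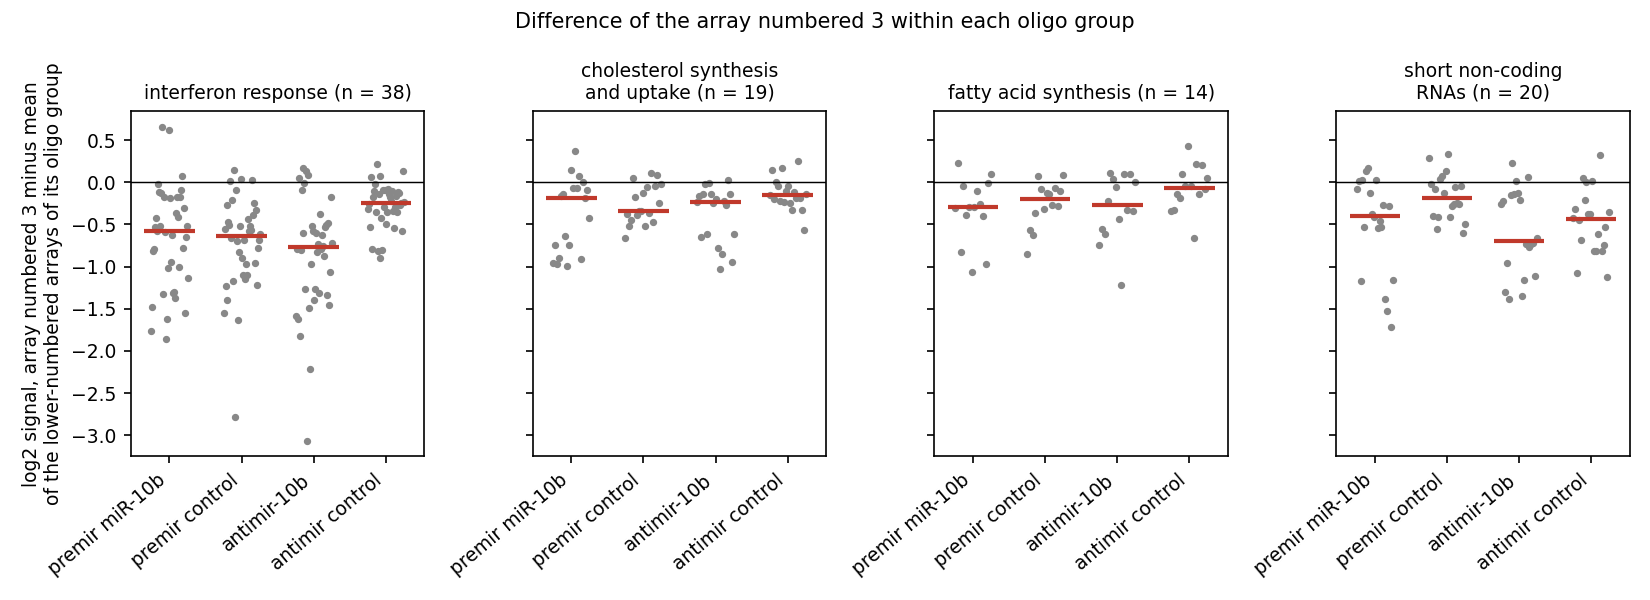
Log2 signal of the array numbered 3 minus the mean of the lower-numbered arrays of its own oligo group, for each member (grey points) of 4 lists, with the median of the list in each oligo group (red bars). The interferon medians are -0.581, -0.635 and -0.773 with premir miR-10b, premir control and antimir-10b, and -0.24 with antimir control, and every median shown lies below 0.

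Short RNAs made by RNA polymerase III or processed in the nucleus formed a further set with lower signals. It was chosen after its values were seen, as every measured small nuclear, vault, Y, signal recognition particle, ribosomal and RNase P or MRP type RNA recognised by its symbol, and so is described without a test. Of the 20, 17 had a negative difference, with a median of -0.397, and 6 of 20 (30%) were below in all 4 groups against 1.67% of all features. VTRNA1-1, a vault RNA and part of a large cytoplasmic ribonucleoprotein particle, was at 9.06, 10.47, 9.63 and 9.38 on the arrays numbered 3. On the arrays numbered 1 or 2 it had a lowest level of 9.99, a median of 10.78 and a highest of 11.55. In each of the 4 groups the array numbered 3 was below its lower-numbered arrays, and across groups the ranges overlapped. The difference was -1.10 ± 0.22 (SE, adjusted p = 0.401, limma).
RNA5S9, a copy of the 5S ribosomal RNA, was at 11.19, 11.81, 11.06 and 11.2 on the arrays numbered 3. Its level on the arrays numbered 1 or 2 was 11.76 at the lowest, 12.36 at the median and 12.79 at the highest, and the difference was -0.97 ± 0.22 (SE). RNU1-3 and RNVU1-18, copies and variants of the U1 RNA of the spliceosome, differed by -0.81 ± 0.18 and -0.79 ± 0.18 (SE). RNY4 and RNY5, Y RNAs bound by the Ro autoantigen, differed by -0.76 ± 0.22 and -0.77 ± 0.25 (SE). Number 3 minus number 2 was only -0.29 for RNY4 and -0.22 for RNY5, and number 2 minus number 1 was -0.79 and -0.90. With premir control, replicate 3 was above replicate 2 for both, at 8.41 and 8.16 for RNY4 and 6.7 and 6.54 for RNY5. Several of the short RNAs are near-identical copies of each other, so a probe can read more than 1 of them and their signals are not independent.
Not all short RNAs had lower signals. RN7SL1, the RNA of the signal recognition particle, differed by -0.15 ± 0.09, RNU6-1 by -0.18 ± 0.13, RN7SK by -0.12 ± 0.12 and RNY3 by 0.03 ± 0.12 (SE). The 111 small nucleolar and Cajal body RNAs had a median of 0.0146, with 50 negative. The mean level of the 20 RNAs was 7.422 to 7.849 on the arrays numbered 3 and 7.623 to 8.197 on the others. Antimir control replicate 2, at 7.623, was the lowest of the 7 arrays numbered 1 or 2, as it was for the interferon genes.

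**Figure D4:**
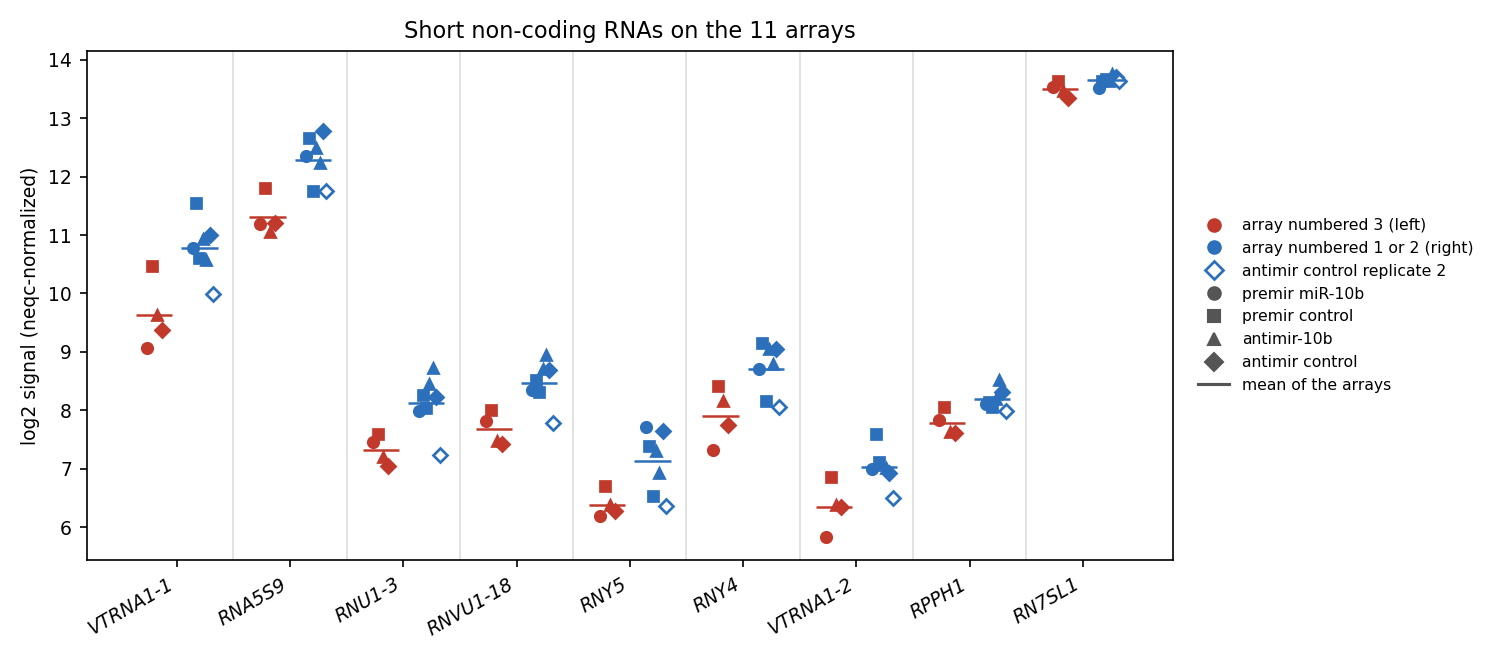
Normalized log2 signal (vertical axis) of 9 short non-coding RNAs on the 4 arrays numbered 3 (red, left) and the 7 arrays numbered 1 or 2 (blue, right), with the oligo group by marker shape, the mean of each set by a bar and antimir control replicate 2 as an open diamond. VTRNA1-1 spans 9.06 to 10.47 on the red points and 9.99 to 11.55 on the blue ones, and RN7SL1 lies between 13.35 and 13.76 on all 11 arrays.

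The 5 genes of smallest p in the higher direction were PXDN, S100A16, SNORD80, RGS2 and MERTK. PXDN, a peroxidase that crosslinks basement membrane collagen, had the smallest p of all features. It was at 6.66, 6.81, 6.67 and 7.17 on the arrays numbered 3, and its level on the others was 5.99 at the lowest, 6.2 at the median and 6.4 at the highest. The ranges did not overlap, a full separation found in the higher direction for 0.357% of features. The difference was 0.67 ± 0.09 (SE), a 1.59-fold higher signal, with an adjusted p of 0.122 by limma.
RGS2, which speeds the shutdown of G protein signals, was at 7.32, 7.61, 7.68 and 7.03 on the arrays numbered 3. On the arrays numbered 1 or 2 RGS2 had a lowest level of 5.48, a median of 6.15 and a highest of 6.85, below every array numbered 3. Its difference was 1.16 ± 0.24 (SE), a 2.24-fold higher signal (adjusted p = 0.401, limma). MERTK, a receptor tyrosine kinase of apoptotic cell clearance, was at 10.29, 10.05, 9.97 and 9.89 on the arrays numbered 3 and at 9.34 to 9.73 on the others, a difference of 0.47 ± 0.10 (SE, adjusted p = 0.401, limma). A second MERTK probe gave 0.39.
S100A16, a calcium-binding protein, averaged 6.51 ± 0.34 on the arrays numbered 3 and 6.06 ± 0.28 on the others (SD), and SNORD80, a small nucleolar RNA, averaged 7.40 ± 0.18 on the arrays numbered 3 and 6.80 ± 0.21 on the others (SD). For S100A16 the array numbered 3 was above its own group's arrays in all 4 groups although the ranges overlapped across groups, and for SNORD80 the ranges did not overlap. Being above in all 4 groups held for 2.2% of all features. ERCC1, a DNA repair nuclease subunit, ZNF702P, MRPL36, RGS2 and PXDN were the named higher calls without antimir control replicate 2.

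The smallest p of all features in the lower direction, those of the lists included, belonged to MATN2, an extracellular matrix adaptor outside the lists. MATN2 was at 6.56, 6.37, 6.3 and 5.94 on the arrays numbered 3, and the arrays numbered 1 or 2 had a lowest level of 6.44, a median of 6.75 and a highest of 7.17. Within each group the array numbered 3 was the lowest, and the difference was -0.55 ± 0.09 (SE, adjusted p = 0.293, limma). UCP2, a mitochondrial carrier, was at 8.92, 8.68, 8.57 and 8.87 on the arrays numbered 3 and at 9.07 to 9.66 on the others, without overlap, a difference of -0.60 ± 0.12 (SE, adjusted p = 0.401, limma). CDH1, the cadherin of epithelial junctions, was at 5.26, 5.39, 5.33 and 5.54 on the arrays numbered 3 and at 5.58 to 6.35 on the others, without overlap, and differed by -0.62 ± 0.14 (SE, adjusted p = 0.421, limma). It was detected on 3 of the 4 arrays numbered 3 and on all 7 others, close to background in both sets. MMP9, a secreted gelatinase, differed by -0.74 ± 0.17 (SE), and antimir control replicate 2, at 6.25, lay among the arrays numbered 3 and below the other 6, which began at 6.91.

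**Figure D5:**
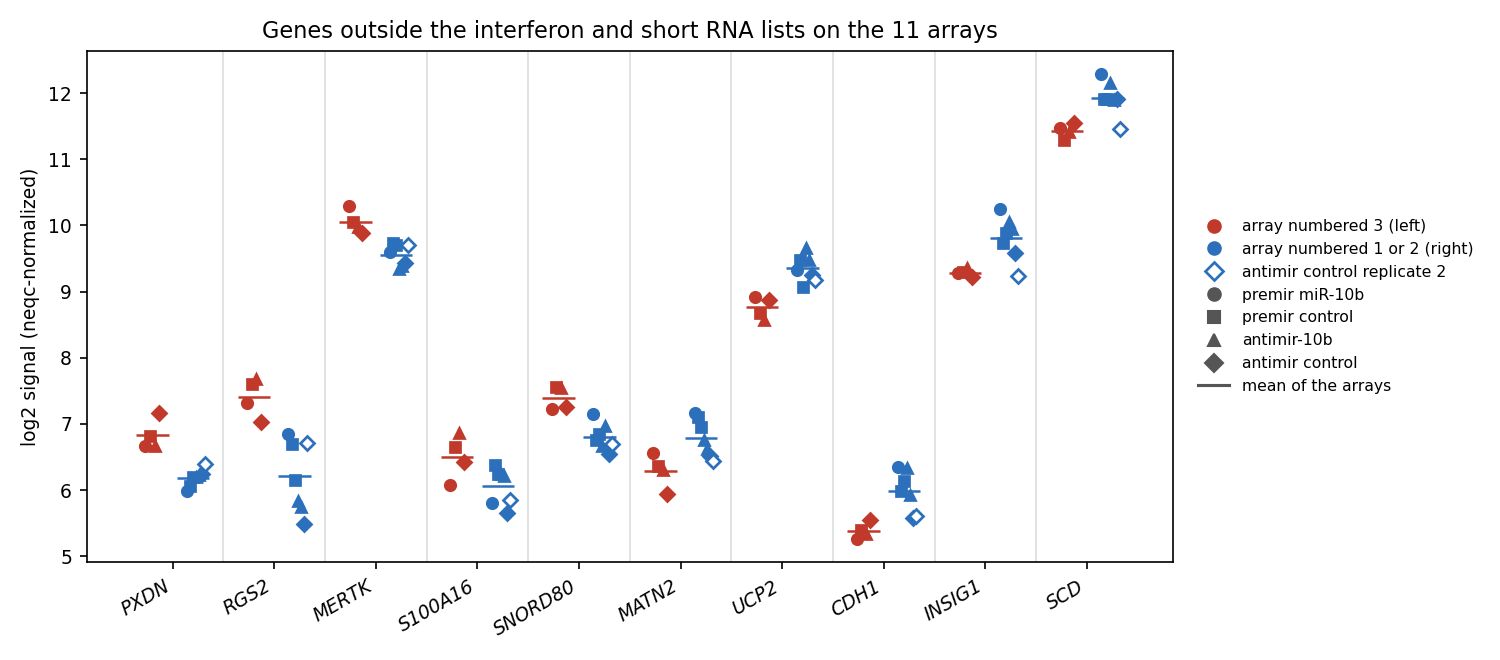
Normalized log2 signal (vertical axis) of 10 genes on the 4 arrays numbered 3 (red, left) and the 7 arrays numbered 1 or 2 (blue, right), with the oligo group by marker shape, the mean of each set by a bar and antimir control replicate 2 as an open diamond. The red points lie above all blue points for PXDN, RGS2, MERTK and SNORD80 and below all of them for UCP2 and CDH1.

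The medians of the other lists lay between -0.119 and 0.097, apart from the 1 islet and 3 fibroblast markers measured. The 35 genes of G2 and mitosis had a median of -0.0823, with 28 negative. By oligo group their medians were -0.264 with premir miR-10b, -0.133 with premir control, 0.0202 with antimir-10b and -0.0135 with antimir control. MKI67, a marker of dividing cells, differed by -0.40 ± 0.16 (SE, adjusted p = 0.782, limma). Its difference was -1.05 with antimir-10b, but -0.28 with premir miR-10b, -0.09 with premir control and -0.13 with antimir control. The 31 genes of S phase and DNA replication had a median of 0.0367, the 34 cytosolic ribosomal proteins 0.0283, the 25 proteasome subunits 0.0303 and the 29 respiratory chain subunits 0.0431. The epithelial list, with CDH1, had a median of -0.119, with 13 of 15 negative, and the mesenchymal list had -0.0598, with 6 of 9 negative. Hypoxia response genes had a median of 0.0786, and NDRG1, induced by low oxygen, differed by 0.39 ± 0.09 (SE, adjusted p = 0.426, limma). ERK output genes had a median of 0.097, with SPRED2, an inhibitor of that pathway, at 0.41 ± 0.11 and SPRY4, another inhibitor, at 0.29 ± 0.09 (SE). IL11, a cytokine in the same list, was at -0.56 ± 0.18 (SE). NF-kB targets had a median of 0.0251 and held members of opposite sign, TNFAIP2 at -0.62 and NFKBIZ at 0.45. p53 targets had a median of 0.00784 with GDF15 at 0.47, and TGF-beta response genes -0.0465 with THBS1, a matricellular glycoprotein, at -0.70. ATF4 and amino acid response genes had a median of -0.047 with ATF3 at -0.60, glycolysis genes -0.0264 with PFKL at -0.40, and lysosome and autophagy genes -0.0494 with CTSD at -0.53.
The medians were -0.00563 for the unfolded protein response, 0.0228 for heat shock, -0.0483 for NRF2 targets and -0.0477 for immediate early genes, of which 12 of 15 were negative. They were 0.0277 for YAP targets, -0.0175 for replication histones, -0.069 for ribosome biogenesis and -0.0781 for metallothioneins and zinc transport. Apoptosis genes had 0.0407 and the small RNA machinery -5.44e-05.

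The lower-numbered arrays were also taken apart. Number 3 minus number 1 gave 1 call, VTRNA1-1, which fell by 1.43 on the log2 scale (adjusted p = 0.0128, limma), so that 0.00576% of features were called lower and 0% higher, with 1290 features at an unadjusted p under 0.05. The call was lost in 7 of 25 alternatives: without premir control replicate 1 (adjusted p = 0.137), antimir control replicate 3 (0.154) or antimir-10b replicate 3 (0.11), with premir miR-10b replicate 2 included (1), without the oligo covariate (0.22), with median centring (0.0974) and with no filter (0.179), all by limma. Number 3 minus number 2 gave 0 calls by limma (501 at an unadjusted p under 0.05), and VTRNA1-1 differed by -0.61 there. Number 2 minus number 1 gave 0 calls (613 at an unadjusted p under 0.05), by limma, with VTRNA1-1 at -0.82, RNY5 at -0.90 and RNY4 at -0.79 among the smallest p. Without antimir control replicate 2, number 3 minus number 1 gave 7 calls and number 3 minus number 2 gave 4, all lower. The 3 comparisons share arrays. The interferon list had a median of -0.64 for number 3 minus number 1, -0.49 for number 3 minus number 2 and -0.0928 for number 2 minus number 1. In the same order the medians were -0.338, -0.221 and -0.0785 for the cholesterol list and -0.419, -0.21 and -0.141 for the short RNA list. For the fatty acid list they were -0.306, -0.0665 and -0.169, so number 2 differed more from number 1 than number 3 did from number 2. Beside PXDN, MERTK and SNORD80, the smallest p for higher signals on number 3 than on number 1 were those of TNFRSF1B, at 0.52, and PON3, at 0.49.

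The oligo groups were then set beside each other, feature by feature. Over all 17369 features, the differences from the group's lower-numbered arrays had a Pearson correlation of 0.364 between antimir-10b and antimir control and 0.19 between premir miR-10b and premir control. Between premir miR-10b and the antimir groups the correlation was -0.255 with antimir-10b and -0.391 with antimir control, and it was 0.181 and 0.0915 between premir control and these 2. These describe features of the same arrays, which are not independent of each other. The premir miR-10b difference rests on 1 array against 1, and its spread over features, an SD of 0.392, was larger than that of the other groups, 0.209 to 0.292.
A test of whether the difference in the antimir groups differed from that in the premir groups called 0 features by limma, with a smallest adjusted p of 0.276, while 2532 had an unadjusted p under 0.05. Without premir control replicate 2 there were 30 calls, and without premir control replicate 3 there were 603, where the premir side rests on the 2 premir miR-10b arrays alone. The smallest p belonged to genes with opposite signs in the 2 arms. TOM1L1, an adaptor of endosomal sorting, had an antimir minus premir difference of 1.11, SPAST, a microtubule-severing enzyme, 1.10, and ZNF12 1.15. WDR24, a subunit of a regulator of mTORC1, had -1.10, SNORD3A, the U3 small nucleolar RNA, -1.05, and MRPS34, a mitochondrial ribosomal protein, -1.02. For the interferon list the median of this difference was 0.174.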

How the data were processed

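Per the labels, biotin-labelled total RNA of 12 PANC-1 cultures was hybridised to Illumina BeadChips. The deposited non-normalized table holds, per probe and array, the summary intensity and a detection p-value, as deposited by the authors with no further processing stated in the file headers. The deposited series table holds the authors' scaled intensities, which were the raw ones times a constant of 0.927 to 1.12 per array, and these served as an alternative. The scanner software and its version are not stated in what was available here.

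All 12 arrays were normalized with limma 3.58.1 in R 4.3.3 (neqc, offset 16, giving log2 values). Of 47231 probes, 30113 had 1 gene symbol, 8 had several and 17110 had none. Probes with a detection p under 0.05 on at least 3 arrays were kept (21195), and the brightest probe stood for each symbol, which left 17369 features, 11725 of them named. The 11 arrays were fitted with the oligo group and number as terms (6 residual degrees of freedom), with two-sided tests, Benjamini-Hochberg adjustment and a threshold of 0.05. The number of arrays limits the precision. Tests on simulated data, with noise independent between features, gave 10 false calls among 17169 unchanged features. The p-values measure the spread between these cultures.

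Same-numbered arrays were checked for deviations from their group means that go together: correlations ran from -0.391 to 0.419, with medians of 0.107, -0.102 and 0.136 for pairs of number 1, 2 and 3 and -0.0309 for pairs of different numbers. Of number 3, 3 of 6 pairs were above 0.1, and 4 of 11 arrays correlated best with their own number. Since not every pair was above 0.1 and the labels name nothing shared, the numbers were not used to pair arrays.

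The members and lists were chosen with earlier results of these data known, and the short non-coding RNA lists after their values were seen. Genes named were those of smallest p (5 per direction, 2 per list) or called. Others were named after their values were seen, among them MX1, OAS2, ISG15, IFIH1, IL11, OAS1, IFIT5, IFITM3, PSMB9, LSS, SREBF2, MMP9, ERCC1 and the short RNAs other than VTRNA1-1, RNY4 and RNY5. Genes known only by a locus identifier were counted and not named. Alternatives changed the normalization, background correction, filter, variance model, covariate, arrays and probe choice.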

Additional observations from a re-analysis of the deposited data

Results flagged for a closer look

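In 109 genes and list means, the highest or lowest array was set against the rest of its set, for the 4 arrays numbered 3 and the 7 numbered 1 or 2, and 10 of 218 sets held an array standing apart by Dixon's criterion, which chance alone gives in about 1 of 20. In 6 of the 10 that array was antimir control replicate 2, the lowest of the 7 arrays numbered 1 or 2: IRF9 at 9.75 (others 10.55 to 11.08), IFIH1 at 6.87 (others 8.13 to 8.85), IFITM3 at 11.59 (others 12.08 to 12.4), MMP9 at 6.25 (others 6.91 to 7.22), IFIT5 at 5.37 (others 5.98 to 6.42) and COL1A1, a fibrillar collagen chain, at 8.28 (others 8.87 to 9.14). SPRY4 was low on premir miR-10b replicate 1, at 9.3 (others 9.71 to 9.95). Among the arrays numbered 3, SNHG10 was high on antimir control replicate 3, at 6.02 (others 5.56 to 5.61), and ZNF12 on antimir-10b replicate 3, at 7.02 (others 6.48 to 6.5). IFI27, not detected on these arrays, was low on premir control replicate 3, at 4.94 (others 4.99).

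The array left out of the comparisons, premir miR-10b replicate 2, had a higher mean level than all 6 control-oligo arrays for the fatty acid genes, at 9.518 on that array and 9.012 to 9.337 on the control arrays, and for the 20 short non-coding RNAs, at 8.543 on that array and 7.422 to 8.197 on the control arrays. It detected 29.5% of probes, and the part of that in these levels was not tested.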

How the results depend on the processing

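The count of 0 calls for arrays numbered 3 minus arrays numbered 1 or 2 was also 0 with the 3-level replicate block, which changed no call of a named gene, and in all other alternatives but 2: array weights gave 1 call (PXDN, adjusted p = 0.0234, limma), and omitting 1 array at a time gave 0 to 20. For number 3 minus number 1, the 1 call became 0 with premir miR-10b replicate 2 included, with median centring or with no filter, 2 without the oligo covariate or without background correction, 4 with trended and robust variances, 5 with array weights, and 0 to 7 with 1 array omitted. With 1 array omitted, number 3 minus number 2 gave 0 to 4 calls, all of the 4 without antimir control replicate 2, and the arm comparison 0 to 603. Number 2 minus number 1 gave 0 throughout. Of 119 results for named genes, 7 changed sign under any of the 26 alternatives: with premir miR-10b replicate 2 included, PSMB9 to 0.0638, RNY3 to -0.134 and RSRP1 (number 3 minus number 2) to -0.0676; with median centring, RNY3 to -0.0379; without the premir miR-10b group, MX2 to 0.021. With 1 array omitted, RNY3 ranged from -0.0718 to 0.108, MX2 from -0.0543 to 0.021, IRF1 from -0.211 to 0.15, IFI44L from -0.0072 to 0.0683 and SREBF2 from -0.0918 to 0.0037. The cause was not tested. The interferon list's median ranged from -0.772 to -0.465, the cholesterol list's from -0.395 to -0.228, the fatty acid list's from -0.267 to -0.153 and the short RNA list's from -0.585 to -0.287. Trying these settings on the list medians and on the genes outside the naming rule was decided after seeing the data. Signals near background limit OAS2, CDH1 and the genes at their detection limit.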
